A study of Danio rerio with 9 samples.

Results

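Ventricles of *Tg(cmlc2:tfeb)* zebrafish, a line with cardiomyocyte-specific overexpression of *tfeb*, were compared with WT ventricles across all expressed genes that the deposited table lists with a name and a chromosome. This gave 18865 genes tested of 25877 placed and named genes, since 7012 had too few counts in all 9 libraries of the series, and the table lists 30628 genes in all. The comparison rests on 3 *Tg(cmlc2:tfeb)* and 3 WT libraries, each made from a pool of 5 ventricles. A further 3 libraries of *mtor xu015/+* ventricles were fitted together with them and are given for some genes as a second reference.

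The *cmlc2* promoter drives the transgene in cardiomyocytes, so that *tfeb* from the transgene and from its own locus are counted together. The labels and methods describe 6-month-old fish of a single transgenic line and corresponding WT siblings, but do not say of which line the WT fish were siblings, nor the sexes in the pools. The WT columns of the table carry a tag of 9 months. If that tag is an age, age and genotype cannot be told apart in this comparison. The methods name dissected ventricular tissue as the source, while the study's results text speaks of whole heart tissues. The libraries are called ventricles here, after the methods. In either tissue, fewer cells of a type and less RNA per cell cannot be told apart.

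TFEB is a basic helix-loop-helix transcription factor that binds E-box motifs in the promoters of genes for lysosomal enzymes, the lysosomal proton pump and autophagy. mTORC1, the nutrient-sensing kinase complex, phosphorylates TFEB on the lysosome and holds it in the cytoplasm. In the heart, autophagy and lysosomes turn over sarcomere proteins and mitochondria, and the cardiomyocyte otherwise depends on fatty acid oxidation and on a dense contractile apparatus. 

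Totals of the estimated counts were 35440229 to 45273885 per library, with normalization factors from 0.946 to 1.08, and *mt-co1*, a mitochondrial gene of the respiratory chain, took 4.34% to 5.75% of each library. Genes whose Benjamini-Hochberg adjusted p in the edgeR quasi-likelihood fit was under 0.05, and which differed by 1.5-fold or more, were called. Of the placed and named genes tested, 13.7% were called, 1238 of them higher in *Tg(cmlc2:tfeb)* (6.56%) and 1353 lower (7.17%). The median log2 fold change was 1.19 among the genes called higher and -1.16 among those called lower, and 309 and 299 genes differed by at least 4-fold. Over all 18865 genes the median log2 fold change was -0.01, and 14382 genes differed by less than 1.5-fold. The 3 transgenic libraries lay outside the range of the 3 WT libraries for 41.7% of genes. These shares are the background for the counts of each gene list. In what follows, values in libraries are normalized counts of replicates 1, 2 and 3 in that order.

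**Figure D1:**
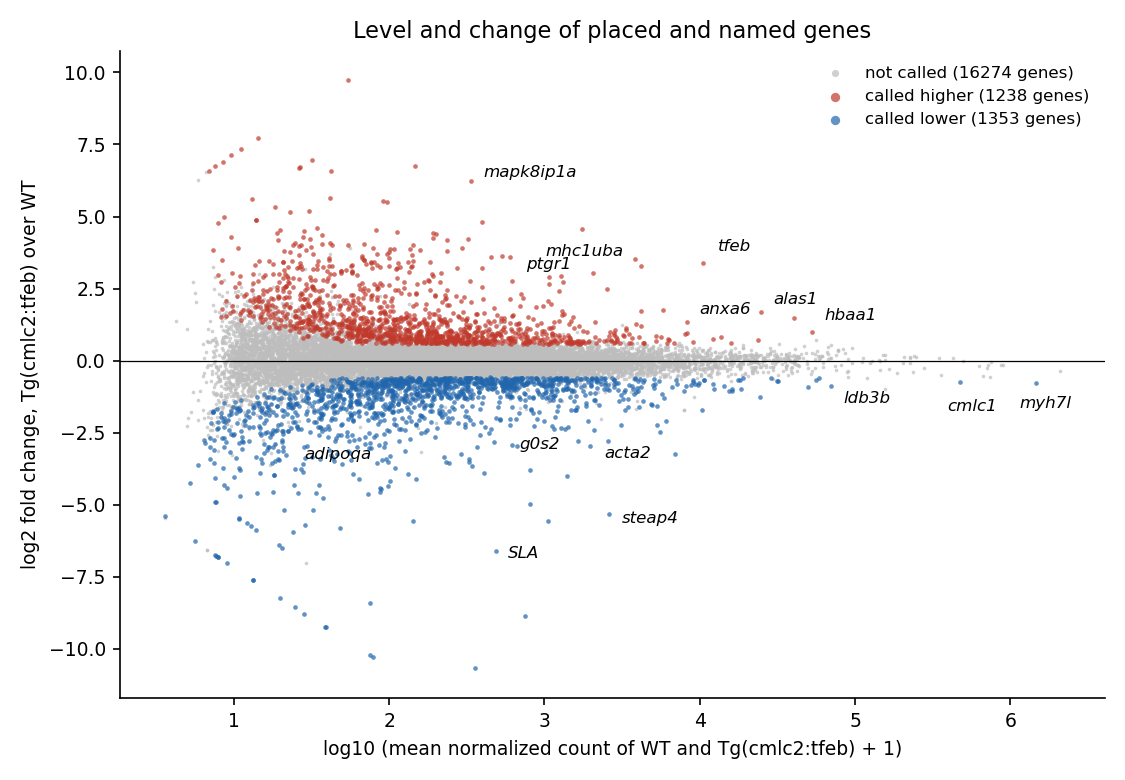
Log2 fold change of *Tg(cmlc2:tfeb)* over WT (y axis) against the log10 of the mean normalized count plus 1 over both groups (x axis) for 18865 placed and named genes, with the 1238 genes called higher in red and the 1353 called lower in blue. Genes of both directions appear at low and high levels, and the called genes with the highest counts, *myh7l* and *cmlc1*, are lower.

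The level of *tfeb* itself (ENSDARG00000010794, chromosome 11, 22287954 to 22361306) was 2169, 1654 and 1707 in WT and 22103, 26435 and 8783 in *Tg(cmlc2:tfeb)* (log2 fold change 3.37, standard error 0.36, edgeR adjusted p = 0.000364). The groups did not overlap, and transgenic replicate 3 held the lowest *tfeb* count of the 3 transgenic libraries. With any of the 6 libraries left out, *tfeb* was still called.

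Lysosome genes, the best known targets of TFEB, were mostly close to WT. Of 144 tested genes for lysosomal enzymes, membrane proteins and the proton pump, 1 was called higher (0.694%) and 7 lower (4.86%), with a median log2 fold change of -0.10 and quartiles of -0.27 and 0.10. In 135 of them the difference was under 1.5-fold. The transgenic libraries lay wholly below WT for 43 of these genes and wholly above for 17, where 21.5% and 20.2% of all genes tested did so. The summed count of the 68 hydrolase and activator genes was 67245 to 68692 in WT and 60425 to 63501 in *Tg(cmlc2:tfeb)*.

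Among these enzymes, *PLBD2* (ENSDARG00000114245, chromosome 9, 168442 to 180334), which encodes a phospholipase B-like protein of the lysosome, was counted at 1814, 2087 and 1620.4 in WT and 267, 524 and 341 in *Tg(cmlc2:tfeb)* (log2 fold change -2.29, standard error 0.26, edgeR adjusted p = 0.000511). *ARSB*, the arylsulfatase that removes sulfate from glycosaminoglycans, was at 376, 406 and 390.4 in WT and 194, 191 and 212 in *Tg(cmlc2:tfeb)* (log2 fold change -0.98, standard error 0.08, edgeR adjusted p = 0.000132). Both fell without overlap of the groups, and in the *mtor xu015/+* libraries *PLBD2* stayed near WT at 1801, 2602 and 1559. *sumf1*, whose product activates sulfatases, and *gnptg*, a subunit of the enzyme that tags hydrolases for the lysosome, also fell (log2 fold changes -1.33 and -0.59, edgeR adjusted p = 0.00131 and 0.0034). The gene called higher was *tmem192*, for a lysosomal membrane protein, at 166, 187 and 188 in WT and 280.4, 306 and 319 in *Tg(cmlc2:tfeb)* (log2 fold change 0.74, standard error 0.10, edgeR adjusted p = 0.00142). The sorting receptor gene *sort1b*, the lysosomal potassium channel gene *tmem175* and the pump subunit gene *atp6v1b2* fell, with log2 fold changes of -0.97, -0.75 and -0.75 (edgeR adjusted p = 0.00233, 0.00578 and 0.00186). A lost call was that of *gnptg* without WT replicate 3 or transgenic replicate 2 or 3 and with limma-voom or upper quartile normalization (log2 fold changes -0.58 to -0.50, adjusted p up to 0.0166).

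Autophagy genes were likewise called rarely. Of 67 genes for autophagy machinery and receptors, 1 was called higher and 2 lower, with a median log2 fold change of -0.20 and 63 within 1.5-fold. The transgenic libraries lay wholly below WT for 33 of these 67 genes and wholly above for 8, where 21.5% and 20.2% of all genes tested did so. These differences were mostly under 1.5-fold. The summed count of the list was 108682 to 113033 in WT and 89096 to 91818 in *Tg(cmlc2:tfeb)*, without overlap. *ulk2*, a kinase that starts autophagosome formation, was at 1139, 1268 and 1326 in WT and 676, 759 and 826 in *Tg(cmlc2:tfeb)* (log2 fold change -0.72, standard error 0.17, edgeR adjusted p = 0.0164). *bag3*, for a cochaperone of chaperone-assisted autophagy, was at 2366, 2473 and 3812 in WT and 1215, 1432 and 1802 in *Tg(cmlc2:tfeb)* (log2 fold change -0.96, standard error 0.20, edgeR adjusted p = 0.00929). Both fell, and neither group reached the other. The LC3-like gene *map1lc3cl* was called higher at a low level, with 20.9, 12.6 and 13.1 in WT and 22.2, 70.5 and 35.9 in *Tg(cmlc2:tfeb)* (log2 fold change 1.45, standard error 0.45, edgeR adjusted p = 0.0458). The calls were lost for *ulk2* without WT replicate 3 or transgenic replicate 1 or 2 (log2 fold changes -0.73 to -0.65, adjusted p up to 0.0545) and for *map1lc3cl* without WT replicate 1, 2 or 3 or transgenic replicate 2 or 3 and with limma-voom, with no low-count filter, with only the 6 libraries compared or the replicate number as a block (log2 fold changes 0.89 to 1.73, adjusted p up to 0.185).

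In the list of mTORC1 and its nutrient sensors, 4 of 46 genes fell (8.70%) and 0 rose, against 7.17% and 6.56% of all genes. The share that fell was thus near the background. *eif4ebp3* and *eif4ebp3l* encode proteins that hold back the cap-binding factor eIF4E until mTORC1 phosphorylates them. *eif4ebp3l* was at 4251, 3559 and 4075 in WT and 1658, 2065 and 2126 in *Tg(cmlc2:tfeb)* (log2 fold change -1.02, standard error 0.17, edgeR adjusted p = 0.0032), and *eif4ebp3* fell from 542, 522 and 566 to 303, 305 and 300.4 (log2 fold change -0.84, standard error 0.07, edgeR adjusted p = 0.000133). *rheb*, the small GTPase that activates mTORC1, fell from 122, 150.4 and 133 to 81.2, 73.2 and 84.1 (log2 fold change -0.77, standard error 0.14, edgeR adjusted p = 0.00574). These 3 genes did not overlap between the groups and kept their calls in all fits with the thresholds as given. *mtor* itself was also called lower (log2 fold change -1.21, edgeR adjusted p = 0.0153), and the call was lost for *mtor* without transgenic replicate 2 (log2 fold change -1.21, adjusted p = 0.0518). Over the list the median log2 fold change was -0.04.

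**Figure D2:**
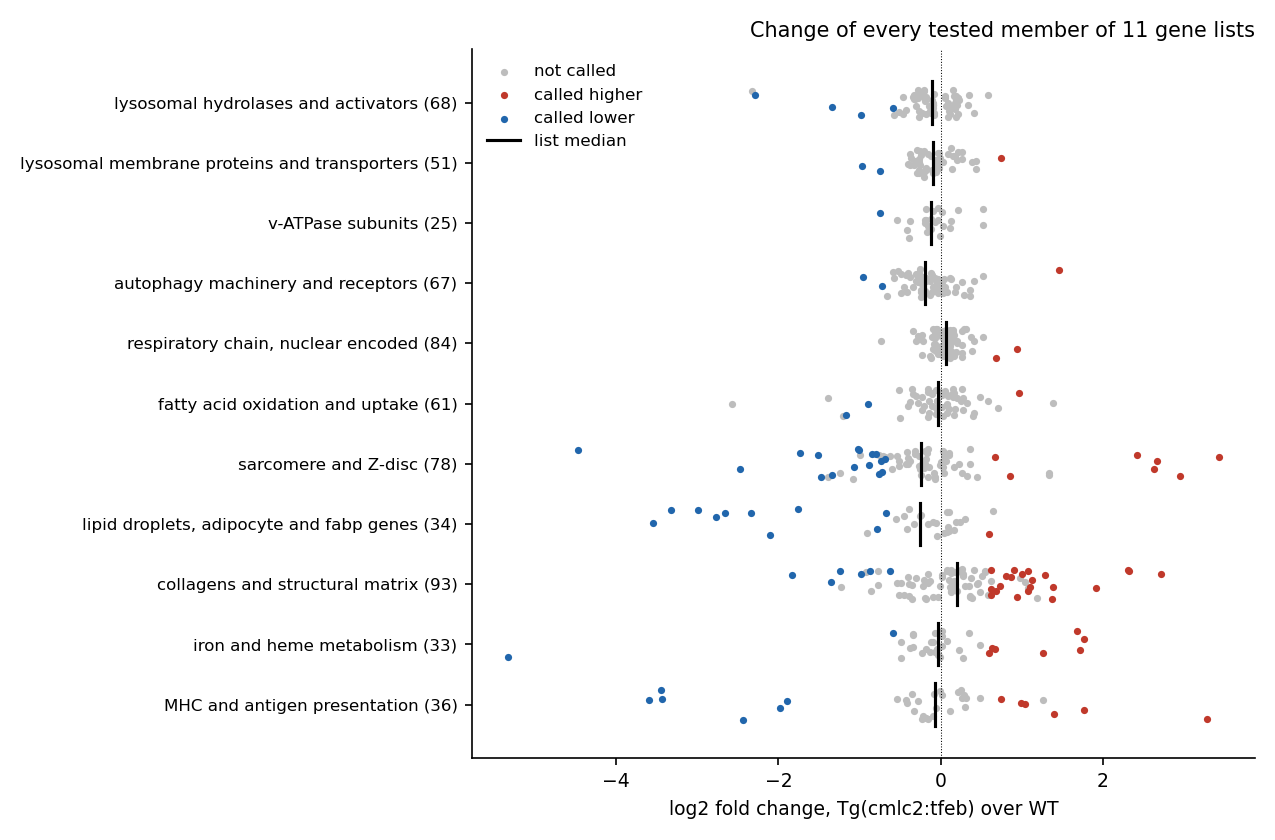
Log2 fold change of *Tg(cmlc2:tfeb)* over WT (x axis) for every tested gene of 11 lists (rows, with the number of genes tested), where points are genes, colours are calls and the black bar is the list median. Lysosome, autophagy and respiratory chain genes mostly stay near 0, whereas sarcomere, matrix, iron and MHC genes spread to both sides and lipid droplet genes mainly below 0.

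Sarcomere genes were lower more often than the background. Of 78 genes for the sarcomere and Z-disc, 16 fell (20.5%) and 7 rose (8.97%), with a median log2 fold change of -0.25. Summed over the list, normalized counts were 6754590 to 7154690 in WT and 5033150 to 5504250 in *Tg(cmlc2:tfeb)*, without overlap. The *mtor xu015/+* libraries, at 6741020 to 7278360, covered the range of WT. Leaving out libraries in turn gave 14 to 18 sarcomere genes called lower and 4 to 7 called higher, the 4 without transgenic replicate 1 or 2.

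The genes that fell included myosin heavy and light chain genes with high counts. *myh7l* (ENSDARG00000079782, chromosome 2, 24274293 to 24289726), listed by RefSeq with the synonym *vmhcl* for the ventricular myosin heavy chain, was at 1963480, 1799960 and 1757620 in WT and 1380700, 1128320 and 746946 in *Tg(cmlc2:tfeb)* (log2 fold change -0.76, standard error 0.18, edgeR adjusted p = 0.0171). *myh7*, with the synonym *vmhc*, fell further, from 16473, 19799.9 and 11644 to 5948, 3881 and 4612 (log2 fold change -1.73, standard error 0.30, edgeR adjusted p = 0.00388). The counts of these similar genes may share reads. The light chain gene *cmlc1* was at 656006, 573129 and 542581 in WT and 399353, 343997 and 316761 in *Tg(cmlc2:tfeb)* (log2 fold change -0.74, standard error 0.11, edgeR adjusted p = 0.00209). The Z-disc gene *ldb3b* varied little within each group, at 88256, 90037 and 92897 in WT and 48762, 48735 and 50163 in *Tg(cmlc2:tfeb)* (log2 fold change -0.88, standard error 0.06, edgeR adjusted p = 4.94e-05). No transgenic library reached the lowest WT library for any of these 4 genes. The call was lost for *myh7l* without WT replicate 1 or transgenic replicate 3 (log2 fold changes -0.71 to -0.55, adjusted p up to 0.0552).

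Other sarcomere and muscle chaperone genes fell. *fhl1a*, for a LIM domain protein of the sarcomere, was at 22728, 22136 and 20680.3 in WT and 10373, 9498 and 11376 in *Tg(cmlc2:tfeb)* (log2 fold change -1.07, standard error 0.09, edgeR adjusted p = 0.000122). The small heat shock protein gene *cryaba* was lower by more, at 230.3, 173 and 99.2 in WT and 10.3, 4.35 and 7.85 in *Tg(cmlc2:tfeb)* (log2 fold change -4.46, standard error 0.47, edgeR adjusted p = 0.000338). *pdlim5a*, for a PDZ and LIM domain protein of the Z-disc, fell as well (log2 fold change -0.80, edgeR adjusted p = 0.000653). Other genes of the list rose. *myoz2a*, for the calcineurin-binding protein calsarcin, was at 337, 240.0 and 298 in WT and 1981, 2159 and 1437 in *Tg(cmlc2:tfeb)* (log2 fold change 2.67, standard error 0.34, edgeR adjusted p = 0.000796), and the troponin I genes *tnni1c* and *tnni1d* rose with log2 fold changes of 2.95 and 3.43 (edgeR adjusted p = 0.00153 and 0.00242). For *tnni1d* the counts were 367, 273 and 79.6 in *Tg(cmlc2:tfeb)*, above the 24.1, 16.1 and 26.2 of WT in each library.

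Skeletal muscle markers moved with these genes. Of 10 tested markers, 3 were higher (30%), 2 to 6 as libraries were left out in turn, and 1 lower (10%), against 6.56% and 7.17% of all genes. Their sum was 944 to 1189 in WT and 3176 to 6546 in *Tg(cmlc2:tfeb)*. Most of the sum was *ckmb*, a muscle creatine kinase gene, at 602, 900.1 and 819 in WT and 2572, 5983 and 4294 in *Tg(cmlc2:tfeb)* (log2 fold change 2.47, standard error 0.33, edgeR adjusted p = 0.00114), without overlap. A further 10 markers, among them the fast myosin genes *myhz1.1*, *myhz1.2* and *myhz2*, were below the count filter in the series. The part of skeletal muscle in the sarcomere counts was not tested.

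The pacemaker channel genes *hcn4* and *hcn2b* were lower. Of 63 genes for ion channels and calcium handling, 5 fell and 5 rose, close to the background and 3 each without WT replicate 3 or transgenic replicate 2, and the median log2 fold change was -0.00. *hcn4* (ENSDARG00000061685, chromosome 18, 1004814 to 1143998), the main pacemaker channel gene of the heart, was at 716, 706 and 539 in WT and 92.3, 97.5 and 139 in *Tg(cmlc2:tfeb)* (log2 fold change -2.59, standard error 0.21, edgeR adjusted p = 0.00012), a 6.00-fold lower level. Its relative *hcn2b* was at 5018, 3707 and 4517 in WT and 1556, 2106 and 2634 in *Tg(cmlc2:tfeb)* (log2 fold change -1.07, standard error 0.19, edgeR adjusted p = 0.0047). The groups overlapped for neither gene, and the *mtor xu015/+* libraries held 659, 909 and 597 for *hcn4*. *casq1b*, for the calcium store protein calsequestrin, also fell (log2 fold change -0.75, edgeR adjusted p = 0.00529). Of the genes that rose, *kcnh2a* encodes a voltage-gated potassium channel and was at 62.8, 65.4 and 56.7 in WT and 235, 189 and 88.5 in *Tg(cmlc2:tfeb)* (log2 fold change 1.47, standard error 0.32, edgeR adjusted p = 0.0116). The T-type calcium channel gene *cacna1ha* rose from 11.5, 5.74 and 5.45 to 25.6, 56.6 and 65.0 (log2 fold change 2.66, standard error 0.57, edgeR adjusted p = 0.0102).

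Genes of cardiac stress were called in both directions, 16.2% of them against 13.7% of all genes. Of 37 such genes 4 were higher (10.8%) and 2 lower (5.41%), against 6.56% and 7.17% of all genes. Without WT replicate 1 or transgenic replicate 1 only 1 was called higher. The natriuretic peptide gene *nppa* was at 55717, 75056 and 79164 in WT and 48960.2, 42351 and 48570.4 in *Tg(cmlc2:tfeb)* (log2 fold change -0.59, standard error 0.16, edgeR adjusted p = 0.0278), just past the 1.5-fold threshold. *nppb*, the related ventricular peptide gene, was at 3077, 2342 and 4519 in WT and 2884, 1249 and 1721 in *Tg(cmlc2:tfeb)* and was not called (log2 fold change -0.76, standard error 0.34, edgeR adjusted p = 0.137). The groups overlapped for *nppb* and not for *nppa*, and *nppb* became called without transgenic replicate 1 (log2 fold change -1.15, edgeR adjusted p = 0.0384) and with the replicate number as a block. *ace*, for the angiotensin-converting enzyme, was at 134, 113 and 148 in WT and 264, 204 and 182 in *Tg(cmlc2:tfeb)* (log2 fold change 0.72, standard error 0.18, edgeR adjusted p = 0.0225), and *agtr1a*, for the angiotensin receptor, rose from 9.42, 5.74 and 6.54 to 34.2, 21.8 and 17.9 (log2 fold change 1.75, standard error 0.42, edgeR adjusted p = 0.0165). Calls were lost for *nppa* without WT replicate 2 or 3 or transgenic replicate 1, 2 or 3 and with limma-voom, with RLE normalization, with upper quartile normalization or no low-count filter (log2 fold changes -0.62 to -0.49, adjusted p up to 0.0992), for *ace* without WT replicate 1 or 2 or transgenic replicate 1 (log2 fold changes 0.55 to 0.73, adjusted p up to 0.0787) and for *agtr1a* without WT replicate 2 or 3 or transgenic replicate 1 (log2 fold changes 1.44 to 1.68, adjusted p up to 0.0678).

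Respiratory chain genes stayed near WT. Of 84 nuclear genes of the chain 2 were called higher and 0 lower, with a median log2 fold change of 0.06 and 81 within 1.5-fold. None of 13 mitochondrially encoded genes and none of 23 TCA cycle genes was called in the edgeR fit. The genes that rose were both subunits of complex IV. *cox6a1* was at 731, 662 and 723 in WT and 1438, 1269 and 1349 in *Tg(cmlc2:tfeb)* (log2 fold change 0.94, standard error 0.10, edgeR adjusted p = 0.000407), and *cox8a* rose from 4343, 3743 and 3966 to 5968, 6493 and 6847 (log2 fold change 0.68, standard error 0.09, edgeR adjusted p = 0.000858), each without overlap of the groups.

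Fatty acid oxidation genes were also close to WT, while glycolytic genes differed by paralog. Of 61 genes of fatty acid oxidation and uptake 1 rose and 2 fell. The gene that rose was *pparaa*, for the nuclear receptor that activates this pathway, at 255, 255 and 288 in WT and 594, 482 and 479.7 in *Tg(cmlc2:tfeb)* (log2 fold change 0.96, standard error 0.12, edgeR adjusted p = 0.000854). *acot11b*, for an acyl-CoA thioesterase, fell from 2234, 2332 and 2100.2 to 1242, 1102 and 1226 (log2 fold change -0.90, standard error 0.09, edgeR adjusted p = 0.000249). Of 62 genes of glycolysis and pyruvate metabolism 4 rose and 8 fell (12.9%). For triosephosphate isomerase, *tpi1b* was at 40413, 39843 and 36806 in WT and 23088, 23681 and 24943 in *Tg(cmlc2:tfeb)* (log2 fold change -0.71, standard error 0.08, edgeR adjusted p = 0.000466), whereas its paralog *tpi1a* rose from 675, 639.5 and 690.3 to 1293, 1419 and 1680.0 (log2 fold change 1.13, standard error 0.10, edgeR adjusted p = 0.000174). How reads shared between the paralogs were assigned is not given in the sources used here. *pkmb*, for pyruvate kinase, fell from 6493, 4185 and 4506 to 1814, 874 and 1953 (log2 fold change -1.71, standard error 0.31, edgeR adjusted p = 0.00462). *pfkfb1* and *pfkfb3*, which make the activator of phosphofructokinase, fell with log2 fold changes of -2.37 and -1.02 (edgeR adjusted p = 0.00179 and 0.00168). *pygma*, the muscle glycogen phosphorylase gene, rose from 2265, 2274 and 2348 to 6618, 5684 and 4251 (log2 fold change 1.27, standard error 0.16, edgeR adjusted p = 0.000717).

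Genes of lipid droplets and adipocytes were lower. Of 34 genes for lipid droplet proteins, adipocyte factors and fatty acid binding proteins, 10 fell (29.4%) and 1 rose (2.94%). The study chose several of these genes on these same samples, so their direction is not independent evidence. The perilipin gene *plin2*, which coats lipid droplets, was at 151, 162 and 143 in WT and 17.95, 11.3 and 8.97 in *Tg(cmlc2:tfeb)* (log2 fold change -3.54, standard error 0.49, edgeR adjusted p = 0.00133). *cidec*, which fuses droplets, was at 143, 94.1 and 119 in WT and 24.8, 12.19 and 19.1 in *Tg(cmlc2:tfeb)* (log2 fold change -2.66, standard error 0.34, edgeR adjusted p = 0.000898), and *g0s2*, the inhibitor of triglyceride lipase, fell from 4185, 1901 and 2516 to 321, 213 and 732 (log2 fold change -2.77, standard error 0.46, edgeR adjusted p = 0.00325). For these 3 genes every transgenic library lay below every WT library. Without transgenic replicate 3 the log2 fold change of *g0s2* was -3.42.

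The fatty acid binding protein gene *fabp7a* (ENSDARG00000007697, chromosome 17, 15433518 to 15435887) was at 261, 199 and 207 in WT, 117, 68.7 and 109.9 in *mtor xu015/+* and 65.0, 27.0 and 63.9 in *Tg(cmlc2:tfeb)* (log2 fold change -2.10, standard error 0.32, edgeR adjusted p = 0.00219 against WT). The transgenic libraries lay below all *mtor xu015/+* libraries too, but that difference was not past the threshold (edgeR adjusted p = 0.0661). The adipokine gene *adipoqa* fell from 158, 138 and 192 to 40.18, 11.3 and 7.85 (log2 fold change -2.99, standard error 0.50, edgeR adjusted p = 0.00325) and *pparg*, for the receptor of adipocyte differentiation, from 222, 127 and 141 to 63.3, 50.5 and 29.1 (log2 fold change -1.76, standard error 0.30, edgeR adjusted p = 0.00381). Without transgenic replicate 1, the highest of that group, the log2 fold change of *adipoqa* was -4.04. *lpl*, for the lipase that frees fatty acids from lipoproteins, was at 8017, 8026 and 7585 in WT and 2825, 2889 and 4820.3 in *Tg(cmlc2:tfeb)* (log2 fold change -1.17, standard error 0.26, edgeR adjusted p = 0.0121). The one gene of the list called higher was *gpam*, for the first enzyme of triglyceride synthesis, at 1151, 1274 and 1112 in WT and 1436, 2145 and 1786 in *Tg(cmlc2:tfeb)* (log2 fold change 0.60, standard error 0.15, edgeR adjusted p = 0.0177). Calls were lost for *lpl* without transgenic replicate 2 (log2 fold change -1.04, adjusted p = 0.0509) and for *gpam* without WT replicate 1 or 3 or transgenic replicate 2 and with limma-voom or the replicate number as a block (log2 fold changes 0.45 to 0.58, adjusted p up to 0.0632).

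Adipocyte markers share most of their genes with this list. Of 7 tested adipocyte markers 6 fell, and their sum was 22577 to 29959 in WT, 18451 to 23812 in *mtor xu015/+* and 12658 to 14919 in *Tg(cmlc2:tfeb)*. The defining genes *plin1*, *lepa* and *lepb* were below the count filter. Whether adipose tissue on the ventricle differed between the pools was not tested.

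In sterol and lipid synthesis, 6 of 53 genes rose (11.3%) and 4 fell (7.55%), against 6.56% and 7.17% of all genes. Without transgenic replicate 2 the number that fell was 1. *apoba*, for apolipoprotein B, was at 1.05, 0 and 0 in WT and 53, 63.6 and 33.6 in *Tg(cmlc2:tfeb)*, at least 16.7-fold higher when WT is set to a floor of 3 counts per library (edgeR adjusted p = 0.000462). The cholesterol exporter gene *abcg1* rose from 49.2, 40.19 and 42.5 to 105, 112 and 112 (log2 fold change 1.32, standard error 0.20, edgeR adjusted p = 0.00219). The mevalonate pathway split, with *mvk*, mevalonate kinase, higher (log2 fold change 1.15, edgeR adjusted p = 0.00556) and *pmvk*, which acts on its product, lower (log2 fold change -1.13, edgeR adjusted p = 0.00708). The desaturase gene *scd* was at 380.0, 58.6 and 57.8 in WT, where replicate 1 stood apart, and 13.7, 4.35 and 4.48 in *Tg(cmlc2:tfeb)* (log2 fold change -4.41, standard error 1.003, edgeR adjusted p = 0.0134). A lost call was that of *scd* without transgenic replicate 2 and with limma-voom (log2 fold changes -4.11 to -3.97, adjusted p up to 0.0964), and without WT replicate 1 the log2 fold change of *scd* was -2.90, still called.

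**Figure D3:**
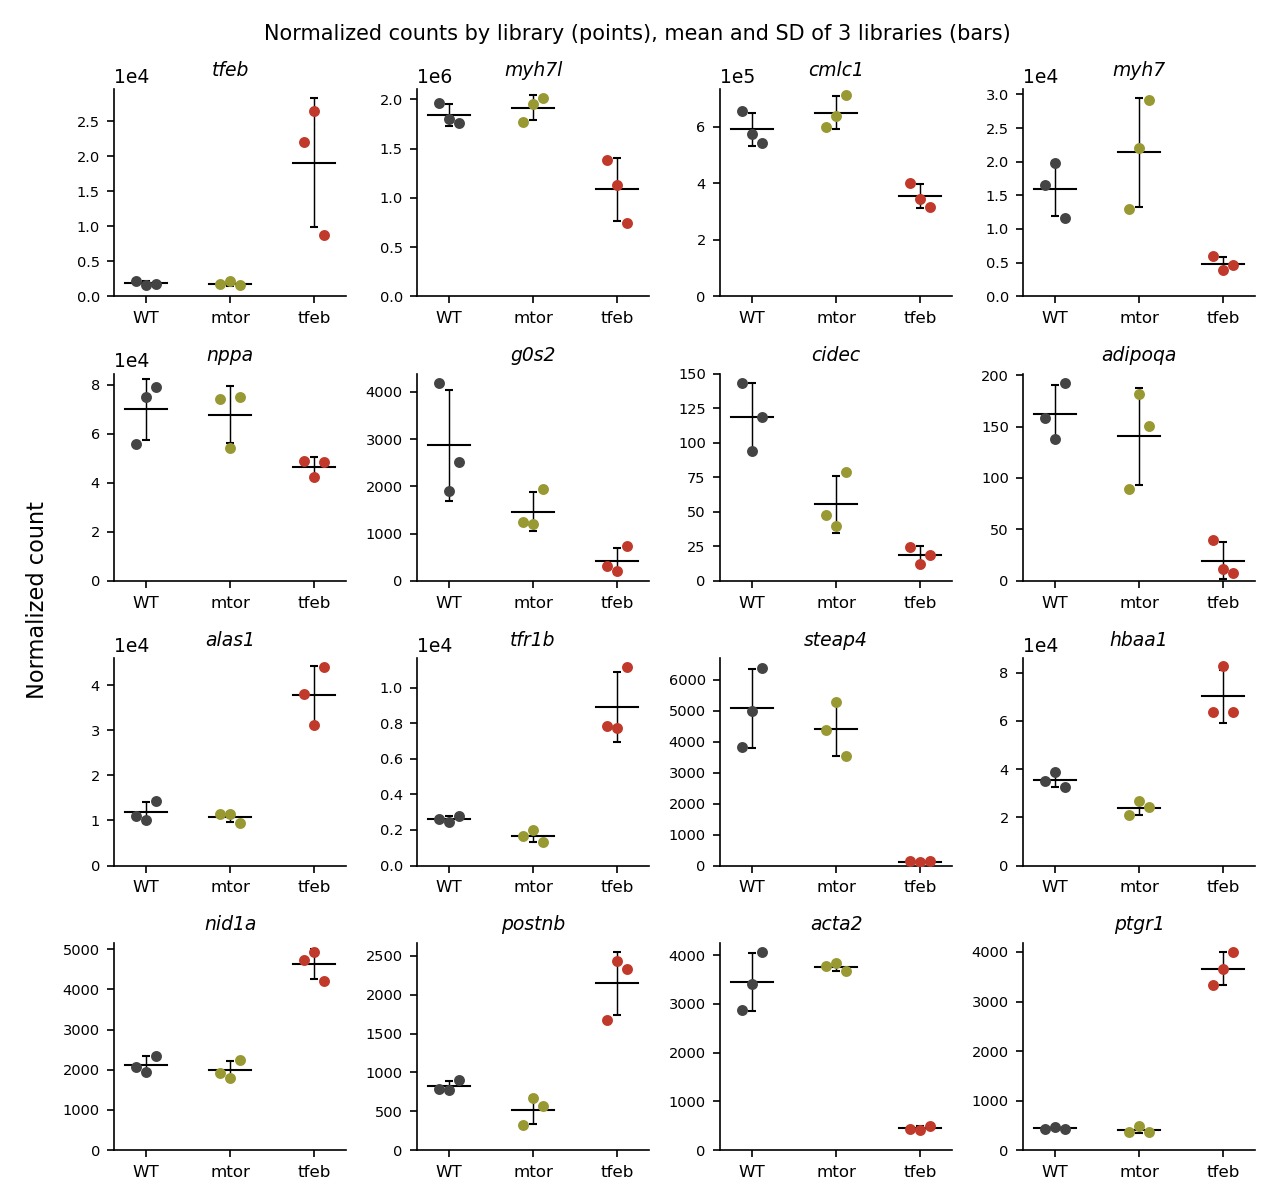
Normalized counts (y axes, linear from 0) of 16 genes in the 3 WT, 3 *mtor xu015/+* (mtor) and 3 *Tg(cmlc2:tfeb)* (tfeb) libraries, with points for libraries and bars for the mean and SD of each group. In all 16 panels the *Tg(cmlc2:tfeb)* points lie outside the range of the WT points, and the mtor points for *cidec* lie between those of WT and tfeb.

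Iron and heme genes were called higher more often than the background, while the list median stayed near 0. Of 33 genes 7 rose (21.2%) and 2 fell, with a median log2 fold change of -0.04 and 15 of 33 above 0. The summed count of the list was 90053 to 98659 in WT and 116697 to 135679 in *Tg(cmlc2:tfeb)*, without overlap. *alas1* (ENSDARG00000021059, chromosome 11, 260763 to 270210), for the first and rate-limiting enzyme of heme synthesis outside erythroid cells, was at 11079, 9984 and 14334 in WT and 38105, 31103 and 43999 in *Tg(cmlc2:tfeb)* (log2 fold change 1.68, standard error 0.17, edgeR adjusted p = 0.000258), 3.198-fold higher. The transferrin receptor genes *tfr1a* and *tfr1b*, which take up iron, rose. *tfr1a* was at 2137, 1826 and 1855 in WT and 6381, 5862 and 6953 in *Tg(cmlc2:tfeb)* (log2 fold change 1.72, standard error 0.20, edgeR adjusted p = 0.000466), and *tfr1b* at 2643, 2434 and 2801 in WT and 7859, 7728 and 11166 in *Tg(cmlc2:tfeb)* (log2 fold change 1.76, standard error 0.18, edgeR adjusted p = 0.000308). The *mtor xu015/+* libraries lay below WT for *tfr1b*, at 1653, 2019 and 1328. *fech*, for the enzyme that puts iron into heme, was at 263, 265 and 234 in WT and 407, 403 and 374 in *Tg(cmlc2:tfeb)* (log2 fold change 0.64, standard error 0.12, edgeR adjusted p = 0.00679). All transgenic libraries exceeded all WT libraries for these 4 genes. The call was lost for *fech* without WT replicate 3 (log2 fold change 0.58, adjusted p = 0.0303).

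The metalloreductase gene *steap4* (ENSDARG00000055901, chromosome 16, 27734872 to 27749172) moved the other way, from 3846, 5009 and 6385 in WT to 135, 104 and 139 in *Tg(cmlc2:tfeb)* (log2 fold change -5.34, standard error 0.24, edgeR adjusted p = 3.14e-06), a 40.4-fold lower level. The *mtor xu015/+* libraries held 4375, 5273 and 3554 and so lay near WT. The heme oxygenase gene *hmox1a*, which breaks heme down, was at 456, 319 and 339 in WT and 258, 240.4 and 242 in *Tg(cmlc2:tfeb)* (log2 fold change -0.59, standard error 0.16, edgeR adjusted p = 0.0263). A lost call was that of *hmox1a* without WT replicate 1 or transgenic replicate 1, 2 or 3 and with limma-voom, with upper quartile normalization or the replicate number as a block (log2 fold changes -0.62 to -0.42, adjusted p up to 0.0821). Left-out libraries lowered the number of iron and heme genes called higher to as few as 3, the 3 without WT replicate 3, and to 4 without WT replicate 2 or transgenic replicate 2.

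Erythrocyte genes were higher in the same libraries. Of 26 erythrocyte markers 5 rose (19.2%) and 0 fell, against 6.56% and 7.17% of all genes, and *tfr1a* and *fech* stand in both lists. Without WT replicate 3 the number that rose was 3. Their sum was 175643 to 195553 in WT, 227470 to 284821 in *Tg(cmlc2:tfeb)* and 117401 to 148143 in *mtor xu015/+*. The alpha globin gene *hbaa1* was at 35125, 38744 and 32574 in WT and 63671, 82839 and 63784 in *Tg(cmlc2:tfeb)* (log2 fold change 0.98, standard error 0.13, edgeR adjusted p = 0.00104), and the anion exchanger gene *slc4a1a* of the red cell membrane rose from 2039, 2472 and 2251 to 3650.4, 4831 and 4023 (log2 fold change 0.89, standard error 0.13, edgeR adjusted p = 0.00193). In *mtor xu015/+* libraries, where the red cell sum was lower than in WT, *alas1* was at 11325, 11326 and 9369 and overlapped WT. *tfr1b* lay below WT in those libraries, as given above. The part of red cells in the levels of *alas1*, *tfr1a* and *tfr1b* was not tested.

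Matrix genes rose more often than the background. Of 93 genes for collagens and structural matrix 21 rose (22.6%) and 6 fell (6.45%), with a median log2 fold change of 0.20. Basement membrane genes were among those that rose. *nid1a*, for nidogen, was at 2075, 1940.4 and 2349.9 in WT and 4732, 4926 and 4204 in *Tg(cmlc2:tfeb)* (log2 fold change 1.12, standard error 0.11, edgeR adjusted p = 0.000286). *hspg2*, for perlecan, rose from 2168, 2679.8 and 2361 to 4534, 4886 and 4404 (log2 fold change 0.94, standard error 0.12, edgeR adjusted p = 0.000837), and *nid1b* and the laminin gene *lama5* rose by less (log2 fold changes 0.62 and 0.62, edgeR adjusted p = 0.00137 and 0.00152). *postnb*, the periostin gene of activated fibroblasts, was at 790.3, 779.6 and 897 in WT, 320.5, 671 and 571 in *mtor xu015/+* and 1677, 2435 and 2328 in *Tg(cmlc2:tfeb)* (log2 fold change 1.38, standard error 0.24, edgeR adjusted p = 0.00394 against WT). Among matrix genes that fell, the matrilin gene *matn4* was at 1804, 1534 and 1359.8 in WT and 741, 553 and 547 in *Tg(cmlc2:tfeb)* (log2 fold change -1.35, standard error 0.24, edgeR adjusted p = 0.00474). Leaving out libraries in turn gave 15 to 24 matrix genes called higher and 3 to 6 called lower, the 3 without WT replicate 2 or transgenic replicate 3. Calls were lost for *nid1b* without WT replicate 1 (log2 fold change 0.57, adjusted p = 0.00706) and for *lama5* without WT replicate 3 (log2 fold change 0.55, adjusted p = 0.00639).

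Fibroblast markers, which include *postnb*, had 2 of 15 higher (13.3%) and 0 lower, against 6.56% and 7.17% of all genes. Their sums were 40458 to 42205 in WT and 45820.1 to 59028 in *Tg(cmlc2:tfeb)*. *dpt*, for the matrix protein dermatopontin, also rose, at 191, 226 and 183 in WT and 535, 443 and 362 in *Tg(cmlc2:tfeb)* (log2 fold change 1.16, standard error 0.23, edgeR adjusted p = 0.00657). Whether fibroblast number took part in the matrix counts was not tested.

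Matrix protease and TGF-beta genes were called about as often as all genes, with 6 of 80 higher (7.5%) and 8 lower (10%). *timp2b*, an inhibitor of metalloproteinases, and *ltbp1*, which stores latent TGF-beta in the matrix, rose. *timp2b* was at 316, 255 and 304 in WT and 1271, 688 and 464 in *Tg(cmlc2:tfeb)* (log2 fold change 1.47, standard error 0.30, edgeR adjusted p = 0.00854), and *ltbp1* at 186, 186 and 136 in WT and 614, 448 and 298 in *Tg(cmlc2:tfeb)* (log2 fold change 1.42, standard error 0.28, edgeR adjusted p = 0.00679). In both genes transgenic replicate 1 was the highest and replicate 3 the lowest of the transgenic libraries, and none overlapped WT. *adamts15a*, a protease of proteoglycans, fell from 1350.4, 1387 and 1653 to 634, 574 and 576 (log2 fold change -1.30, standard error 0.11, edgeR adjusted p = 0.000132), and *smad3b*, for a transducer of TGF-beta signals, from 1351, 1061 and 1166 to 459, 603 and 724 (log2 fold change -1.005, standard error 0.19, edgeR adjusted p = 0.00623). *bmp10l*, related to the cardiac growth factor BMP10, was at 9420.2, 9494 and 8484 in WT and 3279, 5997 and 6288 in *Tg(cmlc2:tfeb)* (log2 fold change -0.82, standard error 0.21, edgeR adjusted p = 0.0237). The call was lost for *bmp10l* without WT replicate 1 or 2 or transgenic replicate 1 (log2 fold changes -0.80 to -0.57, adjusted p up to 0.0676), and every fit without one of the libraries called 4 or 5 of these genes lower.

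The mural cell gene *acta2* (ENSDARG00000045180, chromosome 12, 17100021 to 17116481), for smooth muscle actin, was among the genes with the smallest p. It was at 2884, 3412 and 4069.6 in WT, 3778, 3838 and 3666 in *mtor xu015/+* and 438, 414 and 489.8 in *Tg(cmlc2:tfeb)* (log2 fold change -2.95, standard error 0.13, edgeR adjusted p = 2.67e-06 against WT), a 7.73-fold lower level. *rgs5a*, a pericyte gene that limits G protein signals, fell from 1361, 1257 and 1088 to 557, 539.9 and 632 (log2 fold change -1.10, standard error 0.16, edgeR adjusted p = 0.0015). Of 17 smooth muscle and mural markers 3 fell (17.6%) and 0 rose, against 7.17% and 6.56% of all genes. The transgenic libraries lay wholly below WT for 6 of these markers and wholly above for 4. The summed marker count was 30369 to 31315 in WT and 27759.5 to 28879 in *Tg(cmlc2:tfeb)*. The sums did not overlap and moved by less than *acta2* and *rgs5a*.

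Among growth factors and receptors 10 of 94 genes rose (10.6%) and 3 fell. *aplnra*, an apelin receptor gene of the endocardium and vessels, was at 644, 600.5 and 400.2 in WT and 1652, 1302 and 1129.7 in *Tg(cmlc2:tfeb)* (log2 fold change 1.31, standard error 0.22, edgeR adjusted p = 0.00304). *pdgfbb*, a ligand that recruits mural cells, rose from 462, 420.2 and 427 to 774, 703 and 785 (log2 fold change 0.79, standard error 0.12, edgeR adjusted p = 0.00189), and the Notch ligand gene *jag2a* from 111, 104 and 107 to 209, 201 and 213 (log2 fold change 0.95, standard error 0.12, edgeR adjusted p = 0.000716). *igfbp7*, which binds insulin-like growth factors, fell from 1184, 1148 and 1318 to 695, 573 and 755 (log2 fold change -0.85, standard error 0.11, edgeR adjusted p = 0.000747). Left-out libraries lowered the count of risers to 4 without transgenic replicate 1, to 5 without WT replicate 1 or 2 and to 6 without WT replicate 3. Endothelial markers had 3 of 29 higher (10.3%) and 1 lower (3.45%), against 6.56% and 7.17% of all genes. The transgenic libraries lay wholly above WT for 7 of these markers and wholly below for 7. The marker sums, 115697 to 126790 in WT and 126583 to 130898 in *Tg(cmlc2:tfeb)*, overlapped. The marker called lower was *plvapb* (log2 fold change -0.60). Its call was lost without WT replicate 1, 2 or 3 or transgenic replicate 1 or 3, with upper quartile normalization or with only the 6 libraries compared (log2 fold changes -0.68 to -0.39, edgeR adjusted p up to 0.109). *vwf*, for von Willebrand factor, was one of those higher, at 9597, 10439 and 9468 in WT and 18545, 17785 and 15962 in *Tg(cmlc2:tfeb)* (log2 fold change 0.83, standard error 0.13, edgeR adjusted p = 0.00234).

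**Figure D4:**
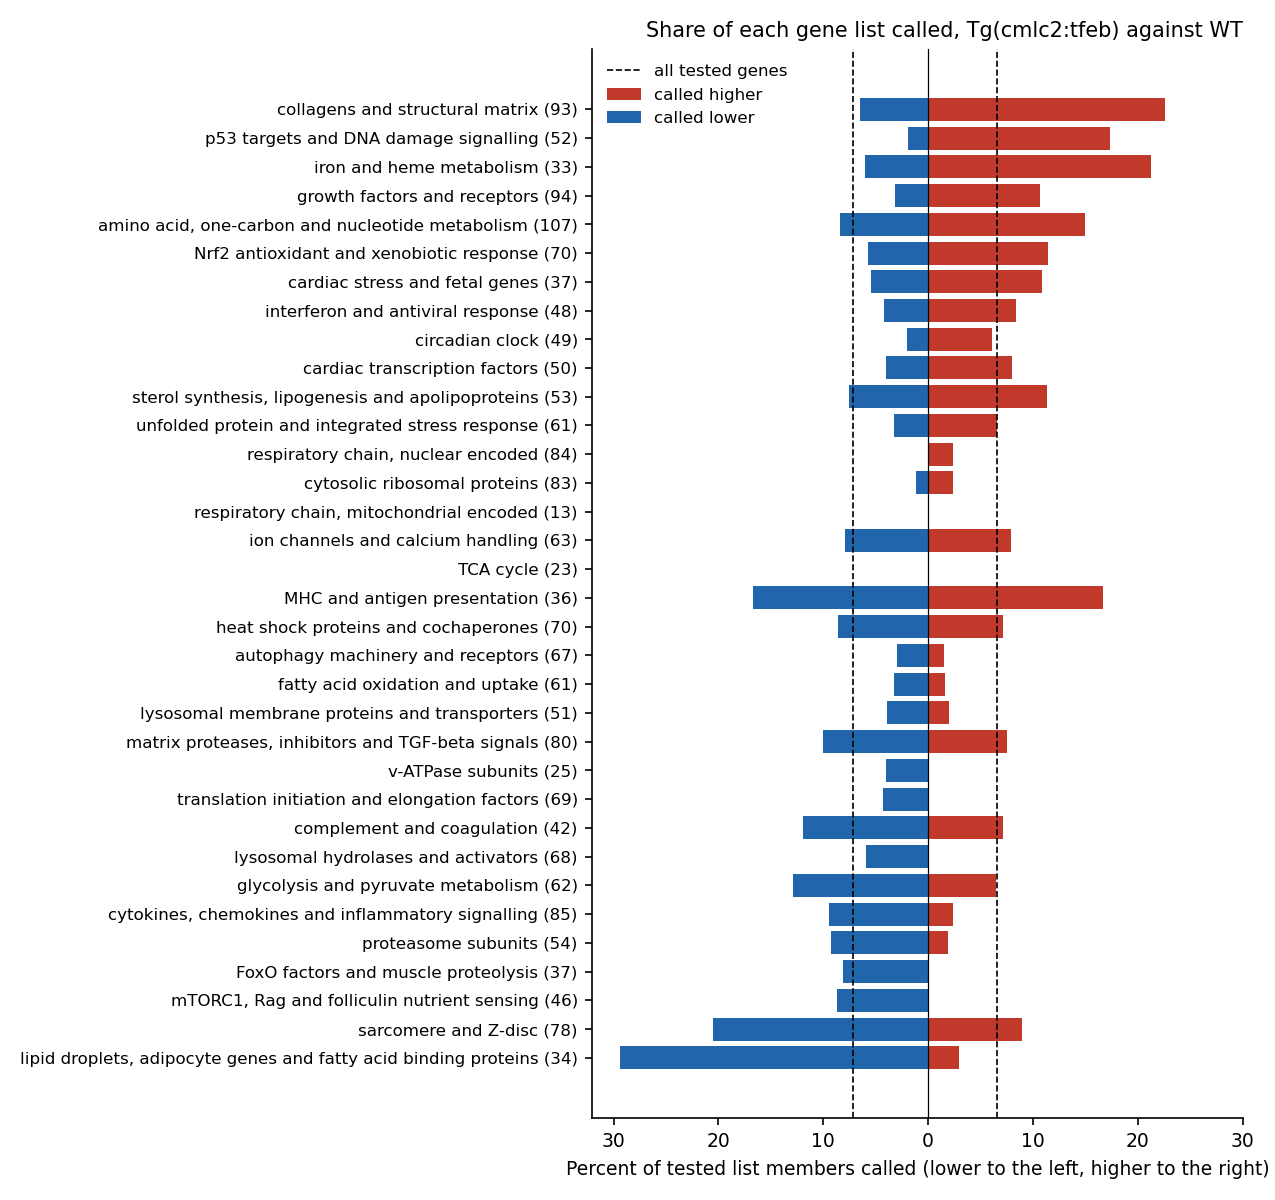
Share of tested genes called higher (red, to the right) and lower (blue, to the left) in each of 34 pathway lists (rows, with the number tested), with dashed lines at the 6.56% and 7.17% of all placed and named genes. Matrix, p53, iron and amino acid lists extend past the line for higher genes, and the lipid droplet and sarcomere lists extend furthest past the line for lower genes.

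Genes of antigen presentation changed strongly in both directions. Of 36 MHC and antigen presentation genes 6 rose and 6 fell (16.7% each). *mhc1uba* (ENSDARG00000075963, chromosome 19, 7072854 to 7101100), a classical MHC class I gene, was at 657, 982 and 709 in WT and 7702, 5744 and 9316 in *Tg(cmlc2:tfeb)* (log2 fold change 3.28, standard error 0.21, edgeR adjusted p = 2.96e-05), and *mhc1zaa* rose from 587, 683 and 775 to 1476, 1844 and 2049.8 (log2 fold change 1.39, standard error 0.20, edgeR adjusted p = 0.00153). The immunoproteasome genes *psmb8a* and *psmb9a*, which cut peptides for class I molecules, fell. *psmb8a* (ENSDARG00000001303, chromosome 19, 7105838 to 7144548) was at 225, 176 and 116 in WT and 20.5, 11.3 and 15.7 in *Tg(cmlc2:tfeb)* (log2 fold change -3.43, standard error 0.42, edgeR adjusted p = 0.000726), and *psmb9a* (ENSDARG00000000656, chromosome 19, 7120380 to 7122373) fell from 44.0, 43.6 and 62.2 to 8.55, 0 and 3.36 (log2 fold change -3.59, standard error 0.64, edgeR adjusted p = 0.00444). The *mtor xu015/+* libraries lay near or above WT, at 404, 159.8 and 284 for *psmb8a*. The MHC class II gene *mhc2dab* also fell, from 116, 117 and 149 to 35.05, 34.8 and 32.5 (log2 fold change -1.90, standard error 0.21, edgeR adjusted p = 0.00042).

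Several of these genes lie close together. *mhc1uba*, *psmb8a*, *psmb9a* and their neighbours *psmb12* and *psmb13a* sit on chromosome 19 in the MHC class I region, where zebrafish are known to carry different sets of genes on different haplotypes. *psmb12* was at 100.5, 80.4 and 89.4 in WT and 15.4, 0 and 6.72 in *Tg(cmlc2:tfeb)* (log2 fold change -3.58, standard error 0.67, edgeR adjusted p = 0.00558), and *psmb13a* fell from 114, 80.4 and 113 to 17.95, 0 and 10.1 (log2 fold change -3.44, standard error 0.62, edgeR adjusted p = 0.00474). Left-out libraries moved the log2 fold changes between -4.84 and -2.97 for *psmb12*, -4.46 and -2.83 for *psmb13a* and -4.94 and -2.99 for *psmb9a*, the larger falls without transgenic replicate 1 and the smaller without replicate 2. In transgenic replicate 2 no count of *psmb9a*, *psmb12* or *psmb13a* was listed. The haplotypes of the pools are not given in the sources used here.

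Interferon and cytokine genes were mixed. Of 48 interferon genes 4 rose (8.33%) and 2 fell (4.17%), against 6.56% and 7.17% of all genes. *stat2*, for the transcription factor that carries the interferon signal, was at 5680.0, 5993 and 6988 in WT and 1847, 2797 and 2369 in *Tg(cmlc2:tfeb)* (log2 fold change -1.41, standard error 0.18, edgeR adjusted p = 0.000742), whereas *gbp2*, for a guanylate-binding protein induced by interferon, rose from 111, 135 and 129.8 to 259, 279 and 382 (log2 fold change 1.29, standard error 0.21, edgeR adjusted p = 0.00305). Of 85 cytokine and inflammatory genes 2 rose (2.35%) and 8 fell (9.41%), so the share that fell was near the 7.17% of all genes. The chemokine gene *cxcl12b* was at 2389.9, 1469.6 and 1636 in WT and 521, 712 and 602 in *Tg(cmlc2:tfeb)* (log2 fold change -1.58, standard error 0.18, edgeR adjusted p = 0.000508). The colony-stimulating factor genes *csf3a* and *csf1a*, which act on neutrophils and macrophages, fell with log2 fold changes of -1.80 and -2.47 (edgeR adjusted p = 0.00109 and 0.00534). With transgenic replicate 2 left out 4 cytokine genes were called lower, and without WT replicate 2 or 3 there were 5.

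Immune cell markers differed by type. Of 18 T and NK cell markers 4 rose (22.2%) and 1 fell (5.56%), against 6.56% and 7.17% of all genes. Those that rose included *tox*, a factor of T cell development, from 90.03, 97.6 and 134 to 552, 508 and 427 (log2 fold change 2.21, standard error 0.28, edgeR adjusted p = 0.000823) and the NK-lysin genes *nkl.1* and *nkl.4* (log2 fold changes 2.27 and 2.13, edgeR adjusted p = 0.0049 and 0.00488). The T cell gene *cd247* fell (log2 fold change -0.78). Its call was lost without WT replicate 1, 2 or 3 or transgenic replicate 1 and with the replicate number as a block (log2 fold changes -0.82 to -0.58, edgeR adjusted p up to 0.078). The defining markers *cd4-1*, *cd8a* and *cd8b* were below the count filter, and the summed marker count was 990.3 to 1567 in WT and 1439 to 1664 in *Tg(cmlc2:tfeb)*, so the sums overlapped. Of 25 macrophage markers 4 fell (16%) and 0 rose, and without WT replicate 3 or transgenic replicate 3 the number that fell was 2. The scavenger receptor gene *marco* was at 374, 426 and 655 in WT and 182, 187 and 228 in *Tg(cmlc2:tfeb)* (log2 fold change -1.29, standard error 0.25, edgeR adjusted p = 0.00636). The macrophage sums, 6807 to 9576 in WT and 7281 to 7471 in *Tg(cmlc2:tfeb)*, overlapped. 

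**Figure D5:**
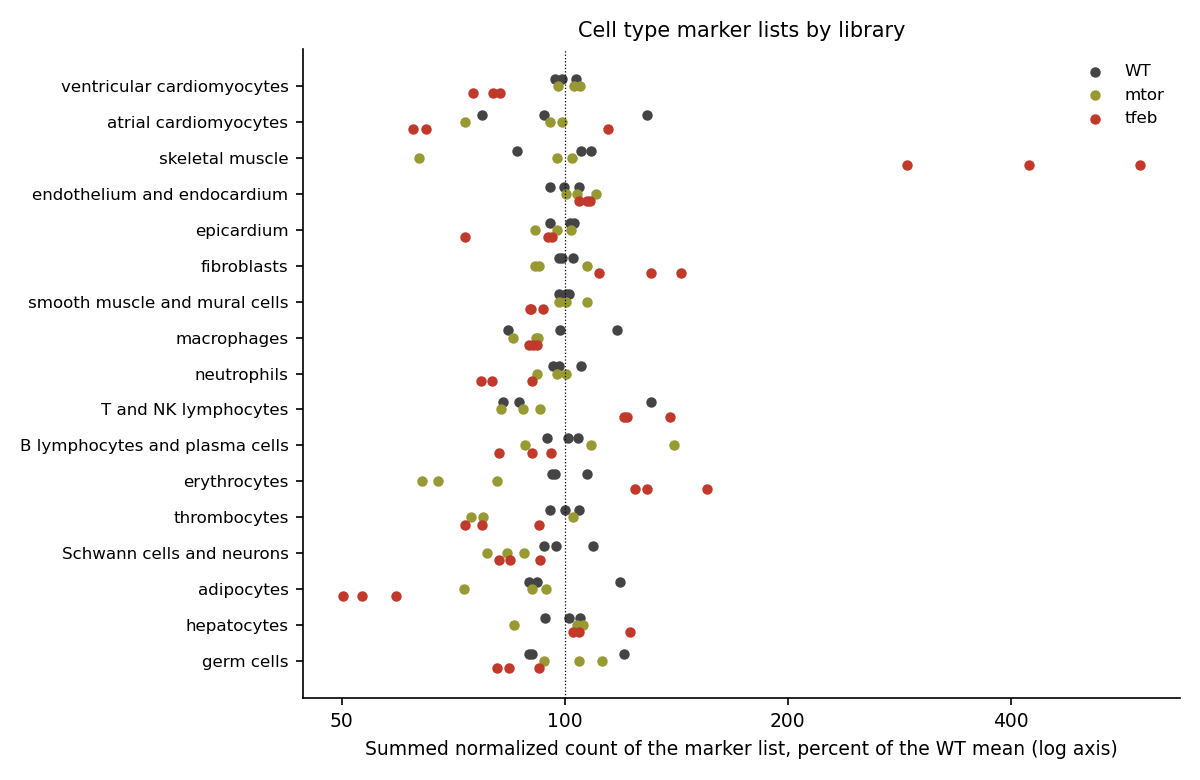
Summed normalized count of each cell type marker list (rows) in each library as a percent of the WT mean (x axis, log scale), with black points for WT, olive for *mtor xu015/+* (mtor) and red for *Tg(cmlc2:tfeb)* (tfeb). The red points lie apart from the black ones for skeletal muscle, erythrocytes and fibroblasts above, and for adipocytes, ventricular cardiomyocytes, thrombocytes, neutrophils, smooth muscle, and Schwann cells and neurons below.

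Ventricular cardiomyocyte markers had a lower sum and few calls. Of 14 tested markers 1 was called lower and 0 higher, with a median log2 fold change of -0.32, and the sums were 3714800 to 3963760 in WT and 2872520 to 3126020 in *Tg(cmlc2:tfeb)*. The marker called was *cmlc1*. The ventricular myosin heavy chain genes *myh7l* and *myh7*, called lower above (log2 fold changes -0.76 and -1.73), were not among the 14 markers counted. All 14 passed the count filter, but so did all 7 atrial markers, so the filter cannot tell ventricle from atrium. Of 7 atrial markers 1 was lower, *nppa*. The atrial sums varied widely within each group, at 68932 to 115235 in WT and 55647 to 102025 in *Tg(cmlc2:tfeb)*, and overlapped.

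Markers of other cell types were called in differing shares, against 13.7% of all genes. Of 16 neutrophil markers 1 rose and 2 fell (18.8% called). Of 15 epicardial markers 1 rose and 2 fell (20%), and of 15 Schwann cell and neuron markers 2 fell (13.3%). For B cells and for hepatocytes 1 marker each was lower, of 18 and 12 tested (5.56% and 8.33%). No thrombocyte or germ cell marker, of 13 and 10 tested, was called by edgeR. The summed counts of some of these lists still lay wholly below WT. They were 66992 to 73366 in WT and 51436 to 64774 in *Tg(cmlc2:tfeb)* for thrombocytes, 6429 to 7014 and 5141 to 6015 for neutrophils, and 7294 to 8475 and 6332 to 7189.5 for Schwann cells and neurons. The germ cell genes *ddx4* and *piwil1* were below the count filter. Of 42 complement and coagulation genes 3 rose (7.14%) and 5 fell (11.9%), against 6.56% and 7.17% of all genes. Without transgenic replicate 2 the number that fell was 3.

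Chaperone and proteasome genes were called about as often as all genes. Of 70 heat shock proteins and cochaperones 5 rose and 6 fell, with 3 higher when WT replicate 2 or 3 or transgenic replicate 1 was left out. *hspb11*, a small heat shock protein gene, was at 28979, 19839 and 24631 in WT and 12372, 11501 and 13262 in *Tg(cmlc2:tfeb)* (log2 fold change -0.98, standard error 0.13, edgeR adjusted p = 0.00113). *hspa4l*, for a relative of the HSP70 nucleotide exchange factor, was at 41.9, 124 and 112 in WT and 1.71, 2.61 and 0 in *Tg(cmlc2:tfeb)*, at least 30.9-fold lower when the transgenic group is set to a floor of 3 counts per library (edgeR adjusted p = 0.000535). *hspa13* fell from 356, 363 and 414 to 170.1, 152 and 158 (log2 fold change -1.24, standard error 0.12, edgeR adjusted p = 0.000197), while the cytosolic HSP70 gene *hspa8b* rose from 176, 135 and 154 to 312, 308 and 288 (log2 fold change 0.96, standard error 0.13, edgeR adjusted p = 0.00112). Of 54 proteasome subunit genes 5 fell, with the immunoproteasome genes among them, and *psmd2*, a subunit of the regulatory cap, rose from 2285, 2320.4 and 2352 to 3874, 4178 and 4579 (log2 fold change 0.86, standard error 0.08, edgeR adjusted p = 0.000227). The log2 fold change was above 0 for 37 of the 54 genes. The transgenic libraries lay wholly above WT for 17 of them and wholly below for 7, where 20.2% and 21.5% of all genes tested did so. The summed count of the list was 67878 to 71388 in WT and 73653 to 81262 in *Tg(cmlc2:tfeb)*, without overlap.

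Genes of the Nrf2 antioxidant response were split. Of 70 tested 8 rose (11.4%) and 4 fell. Beside *ptgr1*, which reduces reactive lipid aldehydes and prostaglandins (log2 fold change 3.03, edgeR adjusted p = 1.8e-06), *gsto2*, for a glutathione transferase, was at 233, 266 and 275 in WT and 639, 742 and 517 in *Tg(cmlc2:tfeb)* (log2 fold change 1.29, standard error 0.15, edgeR adjusted p = 0.000563). The peroxiredoxin gene *prdx1* and the thioredoxin gene *txn* rose with log2 fold changes of 1.34 and 1.02 (edgeR adjusted p = 0.00243 and 0.00311). Another glutathione transferase gene, *gstr*, fell from 16358, 15958 and 16640.2 to 8376, 7725 and 8940.1 (log2 fold change -0.97, standard error 0.08, edgeR adjusted p = 0.000109). The UPR and integrated stress list had 4 of 61 genes higher and 2 lower, near the background.

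Amino acid, one-carbon and nucleotide genes rose more often than the background, 16 of 107 (15%), and 9 fell (8.41%). The folate enzyme genes *shmt1* and *mthfd1a* supply one-carbon units for nucleotides, and the product of the thymidylate synthase gene *tyms* uses them. *shmt1* was at 68.0, 59.7 and 74.2 in WT and 333, 376 and 268 in *Tg(cmlc2:tfeb)* (log2 fold change 2.27, standard error 0.17, edgeR adjusted p = 7.98e-05), *mthfd1a* rose from 169.6, 193 and 188 to 483, 483 and 365 (log2 fold change 1.28, standard error 0.13, edgeR adjusted p = 0.000313), and *tyms* from 12.6, 17.2 and 19.6 to 265, 335 and 193 (log2 fold change 4.0, standard error 0.26, edgeR adjusted p = 2.77e-05). The groups did not overlap for any of the 3 genes. How far their rise went with that of the cell cycle genes given below was not tested. *psat1*, of serine synthesis, and the mitochondrial folate gene *mthfd2*, both also known targets of ATF4 in mammals, rose with log2 fold changes of 1.06 and 0.94 (edgeR adjusted p = 0.000473 and 0.00523). *adsl*, of purine synthesis, fell from 7239, 6485 and 6008 to 3729.9, 3645 and 3819 (log2 fold change -0.82, standard error 0.09, edgeR adjusted p = 0.000338), and the amino acid transporter gene *slc7a8a* from 1234, 1416 and 1383 to 691, 744 and 841 (log2 fold change -0.83, standard error 0.09, edgeR adjusted p = 0.000497).

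Genes of p53 and DNA damage signalling rose in 9 of 52 cases (17.3%) and fell in 1. The members with the smallest p serve DNA replication and its checkpoint as well. *h2ax*, for the histone variant at DNA breaks, was at 50.2, 33.3 and 44.7 in WT and 133, 161 and 124 in *Tg(cmlc2:tfeb)* (log2 fold change 1.70, standard error 0.21, edgeR adjusted p = 0.000796), and the checkpoint kinase gene *chek1* rose from 5.23, 1.15 and 6.54 to 42.7, 58.3 and 40.3 (log2 fold change 3.40, standard error 0.45, edgeR adjusted p = 0.00106). *cdkn1a*, the p53 target that encodes p21, was at 256, 369.7 and 582 in WT and 484, 668 and 471 in *Tg(cmlc2:tfeb)* and was not called (log2 fold change 0.43, standard error 0.26, edgeR adjusted p = 0.279). The groups overlapped for *cdkn1a* and not for *h2ax* or *chek1*, and *cdkn1a* became called without WT replicate 3 (log2 fold change 0.79, edgeR adjusted p = 0.0406). The pro-apoptotic gene *baxa* was called lower, from 82.7, 76.9 and 81.8 to 38.5, 46.2 and 37.0 (log2 fold change -0.98, standard error 0.19, edgeR adjusted p = 0.00623). For comparison, 79 of 113 cell cycle genes were called higher and 1 lower. Without that list, 1159 of 18752 genes were called higher (6.18%) and 1352 lower (7.21%).

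Few genes of translation, the clock or FoxO signalling were called. Of 69 translation factor genes 0 rose and 3 fell, with 2 to 7 lower as libraries were left out in turn. Of 83 cytosolic ribosomal protein genes 2 rose and 1 fell, with a median log2 fold change of 0.11 and 80 within 1.5-fold. The transgenic libraries lay wholly above WT for 39 of these genes and wholly below for 6, where 20.2% and 21.5% of all genes tested did so. Their summed count was 1970330 to 2051780 in WT, 2095670 to 2274580 in *Tg(cmlc2:tfeb)* and 1895740 to 2294060 in *mtor xu015/+*. The genes called higher were *rpl22l1*, from 1928, 1937 and 2045 to 3691, 3768 and 3552 (log2 fold change 0.90, standard error 0.08, edgeR adjusted p = 0.000157), and *rpl5b*, from 16498, 18691 and 18421 to 31071, 27824 and 29345 (log2 fold change 0.72, standard error 0.10, edgeR adjusted p = 0.00136). In the circadian list 3 of 49 genes were called higher and 1 lower, and 0 higher without WT replicate 3. Those called higher were *npas2*, for an activator related to CLOCK, *bhlhe40*, for a repressor, and the ROR gene *rorcb* (log2 fold changes 0.59, 0.59 and 0.60, edgeR adjusted p = 0.0464, 0.0416 and 0.0168). *npas2* lost its call with any of the 6 libraries left out, with limma-voom, another filter or only the 6 libraries (log2 fold changes 0.52 to 0.63, adjusted p up to 0.138). *bhlhe40* lost it without WT replicate 2 or 3 or transgenic replicate 1 or 2 and with only the 6 libraries (log2 fold changes 0.42 to 0.62, adjusted p up to 0.123). *rorcb* lost it without WT replicate 1 or 3 or transgenic replicate 1 (log2 fold changes 0.43 to 0.55, adjusted p up to 0.0625). The gene that fell was the Rev-erb beta gene *nr1d2a*, a repressor of the clock, which was at 2467, 4958 and 7981 in WT and 900.2, 813 and 1529.8 in *Tg(cmlc2:tfeb)* (log2 fold change -2.25, standard error 0.45, edgeR adjusted p = 0.00727). Its level spread widely among WT libraries without reaching the transgenic ones, and the hour at which fish were sampled is not given in the sources used here. In the FoxO list 3 of 37 fell, and 0 without transgenic replicate 1 or 2. *irs2b*, an adaptor of the insulin receptor, was at 2882, 3263 and 7554 in WT and 1482, 1888 and 2109 in *Tg(cmlc2:tfeb)* (log2 fold change -1.32, standard error 0.33, edgeR adjusted p = 0.0188), and *foxo3b*, for a FoxO factor, fell from 5688, 4319 and 4916 to 1683, 2875 and 2908 (log2 fold change -1.0, standard error 0.27, edgeR adjusted p = 0.0294). Calls were lost for *irs2b* without transgenic replicate 1 or 2 (log2 fold changes -1.34 to -1.19, adjusted p up to 0.062) and for *foxo3b* without WT replicate 1 or 3 or transgenic replicate 1 or 2 (log2 fold changes -1.11 to -0.78, adjusted p up to 0.0894).

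Cardiac transcription factor genes had 4 of 50 higher (8%) and 2 lower (4%), near the 6.56% and 7.17% of all genes. *irx4a*, for the Iroquois factor of the ventricle, was at 231, 155 and 113 in WT and 88.1, 58.3 and 58.3 in *Tg(cmlc2:tfeb)* (log2 fold change -1.28, standard error 0.26, edgeR adjusted p = 0.00867). *tcf21*, a factor of the epicardium, rose from 286, 296 and 262 to 475, 435 and 391 (log2 fold change 0.63, standard error 0.11, edgeR adjusted p = 0.00414), while the epicardial surface gene *podxl* fell from 20777, 19298 and 22252 to 11004, 13076 and 5897 (log2 fold change -1.06, standard error 0.23, edgeR adjusted p = 0.012). None of these overlapped between groups. The call was lost for *tcf21* without WT replicate 3 or transgenic replicate 1 (log2 fold changes 0.56 to 0.58, adjusted p up to 0.0197), and with WT replicate 3 left out no cardiac transcription factor gene was called higher.

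Genes outside these lists included some of the smallest p-values and largest folds. *anxa6*, for a calcium-dependent membrane-binding protein, was at 4922, 4706 and 4468 in WT and 11257, 11363 and 12875 in *Tg(cmlc2:tfeb)* (log2 fold change 1.33, standard error 0.08, edgeR adjusted p = 2.43e-05). *mapk8ip1a*, for a scaffold of the JNK pathway, was at 11.5, 8.04 and 6.54 in WT and 1158, 621 and 213 in *Tg(cmlc2:tfeb)* (log2 fold change 6.23, standard error 0.70, edgeR adjusted p = 0.000448). The adaptor gene *traf3ip2l* rose from 3.14, 5.74 and 2.18 to 217, 145 and 169 (log2 fold change 5.55, standard error 0.34, edgeR adjusted p = 2.27e-05) and the cadherin gene *cdh26.1* from 112, 144 and 170.1 to 4286, 4254 and 1444 (log2 fold change 4.55, standard error 0.41, edgeR adjusted p = 0.000151). For *mapk8ip1a* and *cdh26.1* transgenic replicate 3 was the lowest of the 3, as it was for *tfeb*. Without transgenic replicate 1 the log2 fold change of *mapk8ip1a* was 5.57. The part of transgene level in this spread was not tested.

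Among the genes that fell, *sult2st1*, for a sulfotransferase, was at 3544, 2186 and 2105 in WT and 136, 181 and 168 in *Tg(cmlc2:tfeb)* (log2 fold change -4.01, standard error 0.25, edgeR adjusted p = 2.53e-05). *leap2*, for a liver-expressed antimicrobial peptide, was at 4208, 891 and 1105 in WT, where replicate 1 was far above the others, and 47.0, 20.03 and 66.1 in *Tg(cmlc2:tfeb)* (log2 fold change -5.57, standard error 0.75, edgeR adjusted p = 0.00113). Without that WT library its log2 fold change was -4.52. The sialyltransferase gene *st6galnac5b* fell from 696, 498 and 593 to 61.6, 54.0 and 52.7 (log2 fold change -3.40, standard error 0.16, edgeR adjusted p = 3.58e-06), the lectin gene *clec19a* from 755, 521 and 608 to 62.4, 34.8 and 53.8 (log2 fold change -3.64, standard error 0.21, edgeR adjusted p = 1.2e-05), and the thyroglobulin gene *tg* from 157, 186 and 155 to 9.40, 4.35 and 6.72 (log2 fold change -4.57, standard error 0.25, edgeR adjusted p = 1.01e-05). The *mtor xu015/+* libraries lay within or near the WT range for these genes, at 571, 451 and 483 for *st6galnac5b*. *rbpms2b*, for an RNA-binding protein of cardiomyocytes, fell, at 73956, 65625 and 66357 in WT and 37652, 41356 and 50345 in *Tg(cmlc2:tfeb)* (log2 fold change -0.67, standard error 0.11, edgeR adjusted p = 0.00268), and the call was lost for *rbpms2b* without transgenic replicate 1 (log2 fold change -0.58, adjusted p = 0.00729).

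Of 19 gene names taken from the study, which do not cover all the genes it lists, 17 matched a placed gene. Of these 16 were tested, as *il6* had too few counts, and 1 rose and 6 fell, or 3 without transgenic replicate 2. The study chose part of them on these libraries, so the count is not independent evidence. Beside *tfeb*, *bag3*, *cidec*, *fabp7a* and *nppa* above, *bscl2l*, of the seipin family, was at 587, 204 and 221 in WT and 52.1, 31.4 and 121 in *Tg(cmlc2:tfeb)* (log2 fold change -2.34, standard error 0.54, edgeR adjusted p = 0.0144), and the myelin gene *mpz* fell from 464, 249 and 252 to 134, 74.9 and 117 (log2 fold change -1.57, standard error 0.38, edgeR adjusted p = 0.0167). The *mtor xu015/+* libraries were low for both, at 111, 136 and 194 for *bscl2l*. Calls were lost for *bscl2l* without transgenic replicate 2 (log2 fold change -1.98, adjusted p = 0.0501) and for *mpz* without WT replicate 1 or transgenic replicate 2 (log2 fold changes -1.36 to -1.21, adjusted p up to 0.0632). Left-out libraries moved the log2 fold change of *bscl2l* between -3.01 without transgenic replicate 3 and -1.67 without WT replicate 1. *smtnl1* was not called, at a log2 fold change of -1.35, and ranged from -2.17 to -0.68 as libraries were left out. Of the secreted senescence markers, *il1b* was at 149.7, 158 and 185 in WT and 153, 131 and 118 in *Tg(cmlc2:tfeb)* (log2 fold change -0.29, standard error 0.14, edgeR adjusted p = 0.171), and *mmp2* at 2085, 2621 and 2354 in WT and 3090.5, 3146 and 3044 in *Tg(cmlc2:tfeb)* (log2 fold change 0.39, standard error 0.10, edgeR adjusted p = 0.0253), a difference under 1.5-fold. *edn1*, for endothelin, was at 494, 240.0 and 194 in WT and 198, 175 and 113 in *Tg(cmlc2:tfeb)* and was not called (log2 fold change -0.93, standard error 0.40, edgeR adjusted p = 0.127), although it was with the replicate number as a block (adjusted p = 0.0156) and stood at -0.42 without WT replicate 1.

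WT replicate 3 stood apart for some of these markers. *grn1*, of the granulin family, was at 65.9, 68.9 and 626 in WT and 79.5, 40.06 and 30.3 in *Tg(cmlc2:tfeb)* (log2 fold change -2.33, standard error 0.82, edgeR adjusted p = 0.072), *kcnj5*, for a potassium channel of the atrium, at 67.0, 64.3 and 593 in WT and 192, 101 and 80.7 in *Tg(cmlc2:tfeb)* (log2 fold change -0.95, standard error 0.77, edgeR adjusted p = 0.415), and *ankrd9* at 154, 129 and 445 in WT and 48.7, 115 and 108 in *Tg(cmlc2:tfeb)* (log2 fold change -1.43, standard error 0.47, edgeR adjusted p = 0.0571). In all 3 genes that one WT library lay far above the other 2, and none of the differences was called. Without WT replicate 3 the log2 fold change of *kcnj5* was 0.93 (edgeR adjusted p = 0.152), the opposite direction, and those of *grn1* and *ankrd9* were -0.42 and -0.65. Calls were gained by *grn1* without WT replicate 1 or 2 (edgeR adjusted p as low as 0.0405) and by *ankrd9* without WT replicate 2 or with DESeq2 (adjusted p as low as 0.0148).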

How the data were processed

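RNA was sequenced from 9 libraries, 3 each of WT, *mtor xu015/+* and *Tg(cmlc2:tfeb)* ventricles, each from 5 pooled ventricles. The authors deposited a table of estimated counts per Ensembl gene (columns named scaledTPM, which sum to a different total in each library) with gene names and coordinates, taken here as GRCz11. Per the submitters' processing notes, bcl2fastq 2.17, Trimmomatic 0.36 and STAR 2.5.2b were used, while the methods name TopHat and Cufflinks. The tool that made the table, and how reads of similar paralogs were assigned, are not given in the sources used here.

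Estimated counts were rounded, genes with low counts removed (filterByExpr), and libraries scaled by TMM. All 9 libraries entered a quasi-likelihood fit (edgeR 4.0.16, limma 3.58.1, R 4.3.3), with Benjamini-Hochberg adjustment over 21216 genes. Calls needed both an adjusted p below 0.05 and a 1.5-fold or larger difference. Normalized counts are scaled to the mean library size, and the code was tested on simulated data. Where all libraries of a group were at or under 3 counts, the fold is a bound against that floor. Nothing in the labels says more of the replicates than that they are separate pools, so p-values measure the spread between pools. Whether the estimated counts are scaled by gene length is not given in the sources used here, so differences in level between genes are not read from them.

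Genes were named by rule: *tfeb* and the study's markers, and, among placed genes called without overlap of libraries, with a mean of at least 100 normalized counts in the higher group and a name not of clone type, the 10 with the smallest p, the 5 with the largest fold and the 5 with the highest counts in each direction, plus up to 4 called genes per list and direction. Markers below the count filter, and *mt-co1*, were named outside the rule after values were seen. The members and gene lists were chosen with earlier results of these data known. Alternatives were DESeq2 1.42.0, limma-voom, other scalings, filters and fold thresholds, 6 libraries only, the replicate number as a block, and each library left out. A planned description of promoter motifs was not run because no sequence was used here. Of other per-sample columns there were 0.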

Additional observations from a re-analysis of the deposited data

How the results depend on the processing

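Against 1238 genes called higher and 1353 lower, DESeq2 called 1310 and 1445, limma-voom 1271 and 1314, and RLE and upper-quartile scaling 1245 and 1346 and 1312 and 1249. Without a fold threshold 1870 genes were called higher and 2162 lower, and at 2-fold or more 762 and 797, as the thresholds themselves set. With 1 library left out, 929 to 1192 genes were called higher and 1002 to 1234 lower, lowest without transgenic replicate 2. In no alternative was a gene called in the direction opposite to its main call. Of 232 called named genes, 167 were called in every fit with the thresholds as given. Of 9 named genes not called, 6 were called in at least 1 alternative. *kcnj5*, not called at a log2 fold change of -0.95 (edgeR adjusted p = 0.415), ranged from -1.40 to 0.93 as libraries were left out, the latter without WT replicate 3 and again not called (adjusted p = 0.152). Small counts in lists were unsteady: of 43 list counts of 1 to 3 genes, 32 moved by over 1.5 times when some library was left out, and of 39 counts of 4 genes or more, 16 did. The groups share replicate numbers, but deviations of same-numbered libraries correlated at 0.040, -0.0035 and -0.018, and only replicate 1 correlated best with its own number. Whether same-numbered pools share more than a number is not given in the sources used here, and correlations this small cannot tell. With the replicate number as a block 1149 genes were called higher and 1275 lower.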

Other observations

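Called genes were spread over the whole genome. The share called ran from 10.8% of tested genes on chromosome 2 to 18.4% on chromosome 22, and none of the 13 mitochondrial genes was called by edgeR. Among 913 windows of 1000000 bases with at least 10 tested genes, the median share called was 12.07%. In 1 window the share passed 50%, on chromosome 22 from 14000001 to 15000000, where 6 of 10 genes were lower and 0 higher (60.0%). Windows on chromosome 1 from 21000001 to 22000000 and on chromosome 19 from 19000001 to 20000000 followed, each with 4 of 11 genes higher and 1 lower (45.5%).

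Genes with clone-type names and pseudogenes were called more often than others. Of 3864 tested genes with clone-type names 301 were higher and 388 lower, against 937 and 965 of 15001 genes with other names. Of 64 unprocessed pseudogenes 14 were higher and 13 lower (42.2%), against 1221 and 1337 of 18763 protein-coding genes (13.6%). How reads shared between a pseudogene and its parent gene were assigned was not tested.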
